A study of Mus musculus with 24 samples.

Results

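The genes described here encode the machinery that carries nuclear-encoded proteins into mitochondria. They were chosen by name from the count files: every symbol beginning with Timm or Tomm and a digit, and in addition Timmdc1, Samm50, Pam16, Dnajc19, Grpel1, Grpel2, Pmpca, Pmpcb, Chchd4 and Gfer. This gave 34 of 23420 gene symbols, of which 33 passed the filter on low counts and were tested among 12584 genes. Only Tomm20l did not pass it. RNA had been sequenced from sorted mouse CD4 T cells in 24 libraries, 6 in each of 4 states. All libraries came from the genotype labelled OT2Nur77GFP+/- on a C57BL/6 background. These cells carry the Tcra and Tcrb transgenes of the OT-II receptor, which recognises an ovalbumin peptide, and a reporter transgene in which Nr4a1 (Nur77) sequences drive a fusion of green fluorescent protein and Cre. Controls and stimulated cells therefore share both transgenes. Naive cells came from spleens. Activated naive cells were naive cells stimulated for 6 hours with an agent that the labels do not name. TH1 effector cells, helper cells that make interferon gamma, came from a 5-day differentiation. Reactivated TH1 cells were effectors of this kind after 6 hours with macrophages that carried antigen. The state of the T cell and the kind of stimulation therefore cannot be told apart in a comparison of the 2 responses. Neither the age nor the sex of the animals is given, nor whether the 6 libraries of a state came from separate animals, and p-values here speak only of the variation among the sequenced libraries, which may be technical.

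Most mitochondrial proteins are made in the cytosol as precursors. The translocase of the outer membrane (TOM) receives them through its receptors and passes them through the Tom40 pore. Behind it the paths divide: the sorting and assembly machinery inserts barrel-shaped proteins into the outer membrane, the TIM23 complex and its ATP-driven motor move presequence proteins into the matrix, and small chaperones of the intermembrane space carry membrane proteins to the TIM22 complex. A disulfide relay led by Chchd4 (Mia40) traps small cysteine-rich proteins between the membranes, the small chaperones among them, and a processing peptidase in the matrix cuts off presequences. T cells are known to enlarge their mitochondrial content after activation.

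Libraries held 18457700 to 34262600 counts assigned to genes and came from 2 sequencing runs, numbers 1 to 3 of each state in the first and 4 to 6 in the second. T cell markers summed to between 2573 and 4474 CPM (counts relative to the scaled total of a library) in every library. Single markers moved more: from naive to activated naive libraries mean Cd4 fell from 926 to 132 CPM and Cd5 rose from 169 to 1396 CPM. TH1 markers summed to 0.624 to 1.14 CPM in naive libraries and to 9621 to 19623 CPM in reactivated TH1 libraries. Their sums were 86.8 to 109 CPM after activation of naive cells and 1003 to 1523 CPM in TH1 effectors. Most of the reactivated sum was Ifng, at a mean of 12950 CPM against 198 CPM in the effectors. On reactivation mean Tbx21 rose from 98.8 to 193 CPM and Cxcr3 from 22.7 to 35.8 CPM. Il12rb2 fell from 889 to 288 CPM. Mean Cxcr3 was highest in activated naive cells, at 45.9 CPM. Reactivated TH1 libraries held low levels of macrophage transcripts: Lyz2 lay at 4.58 to 7.23 CPM there against 0 to 0.137 CPM in TH1 effector libraries, and Csf1r, Fcgr1, C1qa and Msr1 were at 0 in all TH1 effector and activated naive libraries but not in reactivated ones. The 14 macrophage markers found in the files summed to 53.0 to 69.2 CPM in reactivated TH1 and 59.0 to 70.7 CPM in TH1 effector libraries, most of it Ctss. Mean Ctss (38.7 against 58.9 CPM), Mrc1 (0.298 against 0.862 CPM) and Cd14 (0.358 against 0.416 CPM) were lower after reactivation. The other markers of this list had higher means there. B cell markers reached 19.3 CPM in sum in 1 TH1 effector library, and dendritic cell markers lay at 7.09 to 10.6 CPM in reactivated TH1 libraries against 1.51 to 3.603 CPM in TH1 effector libraries. Most of the dendritic cell sum was Zbtb46, at means of 7.71 and 1.52 CPM. Itgax was higher too (0.421 against 0.0296 CPM). Flt3 (0.337 against 0.676 CPM) and Clec9a (0.0171 against 0.0322 CPM) were lower, and Xcr1 had no counts. The part of these cells in the results was not tested. Interferon-response transcripts summed to 624 to 946 CPM in naive and 53.0 to 99.6 CPM in TH1 effector libraries. They summed to 585 and 485 CPM in activated naive numbers 5 and 6, against 57.1 to 108 CPM in numbers 1 to 4. In reactivated TH1 libraries the same numbers stood at 629 and 508 CPM, against 141 to 345 CPM. Each count of members is therefore also given without these numbers.

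Nearly all genes of the import machinery were higher after stimulation, both in naive and in TH1 cells. The counts of the 34 members summed to 1151 to 1221 CPM in naive libraries (median 1185), 2372 to 2783 CPM in activated naive libraries (median 2653), 1507 to 1787 CPM in TH1 effector libraries (median 1691) and 2706 to 2989 CPM in reactivated TH1 libraries (median 2852). Neither stimulated state overlapped its resting state, and the TH1 effector libraries all lay above the naive ones. In activated naive against naive cells 29 of 33 members were higher and 1 was lower at an adjusted p under 0.05 in edgeR's quasi-likelihood test, when 41.3% of all genes tested were higher and 40.5% lower. The median log2 fold change of the members was 0.95, that of all genes 0.005. Of the 29 higher members 28 had no overlap between the libraries of the groups, but the share of all genes without overlap was not counted. The exception was Timm21, a subunit that links TOM and TIM23, at 22.7 to 27.9 against 27.1 to 34.4 CPM.

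In TH1 effector against naive cells 25 members were higher and 4 lower, against 44.6% and 40.3% of all genes, with medians of 0.46 and 0.06. In reactivated TH1 against TH1 effector cells 29 members were higher and 1 lower, against 39.9% and 39.8% of all genes, with medians of 0.74 and -0.002. The groups of 22 of the 25 and of 27 of the 29 higher members did not overlap, again with no share of all genes beside these counts. Fitted in each run alone, the counts higher and lower were 30 and 1, then 29 and 1 in activated naive cells, 27 and 3, then 21 and 4 in TH1 effector cells, and 26 and 1, then 27 and 1 in reactivated TH1 cells. Without numbers 5 and 6 they were 30 and 1, 25 and 3, and 28 and 1. The shares of all genes above belong to the fit of all 24 libraries, and those of these smaller fits are not given here. These comparisons share groups (naive cells are in 2 of them, as are TH1 effectors), so that their lists of members are not independent. Values are levels in bulk RNA relative to all RNA of a library, and more RNA of all kinds per cell would not be seen. Fewer cells of a type and less RNA per cell cannot be told apart in such samples.

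**Figure D1:**
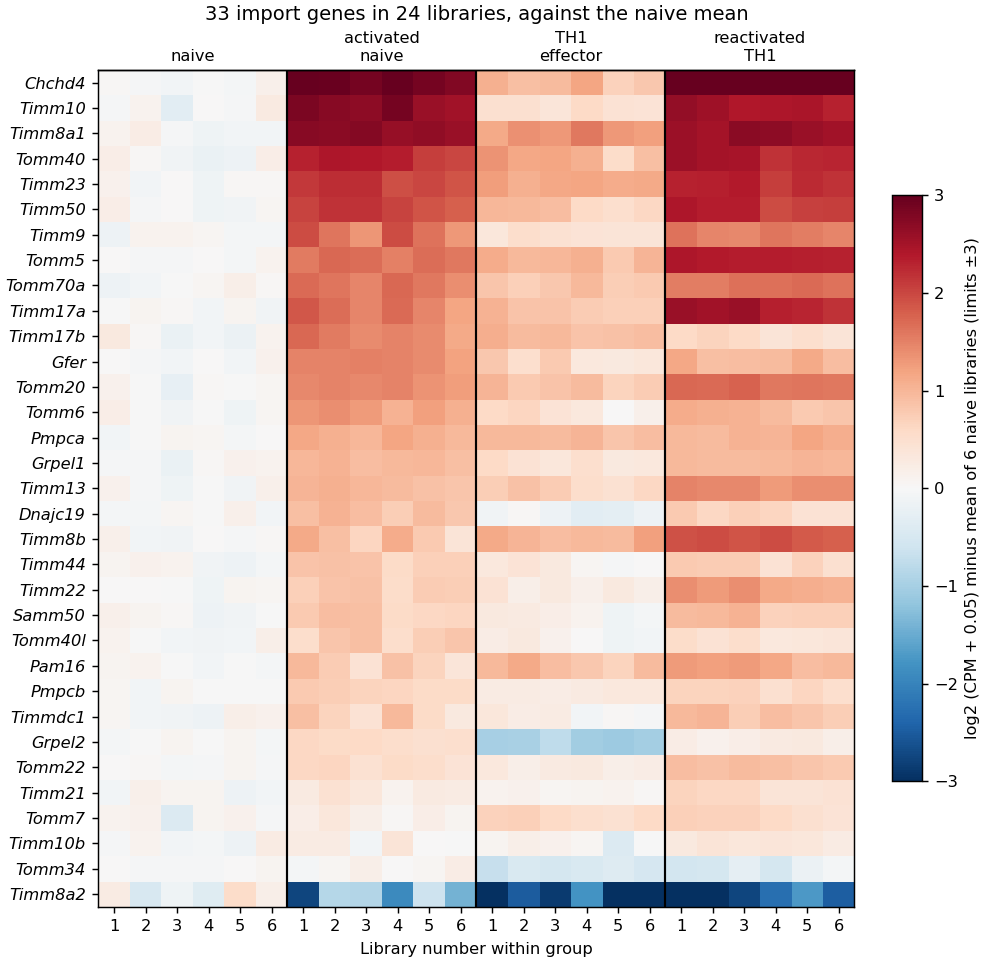
Level of the 33 tested members (rows, ordered by their change in activated naive cells) in each of the 24 libraries (columns, by state and number), as log2 of CPM plus 0.05 minus the mean of the 6 naive libraries. Red spans nearly all rows in both stimulated states, Grpel2 and Tomm34 are blue in TH1 effector libraries, and Timm8a2, under 1 CPM on average in every state, is lower in the other states than in naive libraries.

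Within the TOM complex the pore gene had the largest rise in activated naive cells and in TH1 effectors, and on reactivation Tomm5 rose slightly more (log2 1.36 against 1.32). Tomm40, which encodes the pore (chromosome 7, 19701313 to 19715438, minus strand, GENCODE M21 on GRCm38), lay at 35.1 to 46.3 CPM in naive (median 39.2), 161.6 to 215 in activated naive (median 201), 58.5 to 102 in TH1 effector (median 87.3) and 179 to 238.1 CPM in reactivated TH1 libraries (median 208). Each resting state stood below both stimulated states without overlap. It rose 4.78-fold in activated naive cells (log2 2.26, SE 0.09, adjusted p = 2.5e-18), 2.06-fold from naive to TH1 effector cells (adjusted p = 2.04e-11) and 2.502-fold on reactivation (log2 1.32, adjusted p = 1.92e-13). Its paralog Tomm40l, a second pore form, lay at 29.0 to 35.2 CPM in naive, 45.2 to 58.2 in activated naive, 28.8 to 38.2 in TH1 effector and 38.9 to 46.0 CPM in reactivated TH1 libraries (medians 30.4, 53.7, 32.9 and 41.3). The ratio of Tomm40 to Tomm40l counts was 1.203 to 1.37 in naive libraries and 4.59 to 5.31 in reactivated TH1 libraries, and it differed in all 4 comparisons of states, from 1.33-fold in reactivated TH1 against activated naive to 2.90-fold in activated naive against naive cells (exact two-sided permutation tests over libraries, adjusted p = 0.002886 each over 28 ratio tests, from the smallest p that 6 against 6 libraries allow, 0.0021645). The exons of Tomm40l share 64.3% of their bases with Nr1i3 on the other strand, which averaged at most 0.00583 CPM in any state.

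The receptors of the outer membrane were higher in both stimulated states too. Tomm20, the receptor for presequences, averaged 76.6, 203, 137 and 242.8 CPM in naive, activated naive, TH1 effector and reactivated TH1 libraries, and Tomm70a, the receptor that takes precursors from cytosolic chaperones, averaged 100.8, 301, 177 and 309 CPM. Tomm20 rose by log2 1.40 and 0.82 on the 2 stimulations and Tomm70a by log2 1.58 and 0.81. Tomm22, the central receptor that ties the pores together, rose less, by log2 0.54 (SE 0.04) in naive and 0.64 (SE 0.04) in TH1 cells. Tomm20 has 10 pseudogenes at 90% identity or more over at least 50% of its coding sequence, so its counts are uncertain to that extent.

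The small TOM subunits did not move alike. Tomm5 averaged 21.3 ± 0.89, 65.5 ± 3.6, 42.6 ± 3.2 and 109 ± 3.2 CPM (SD, n = 6) in the order of the states used above, and the 4 states did not overlap. Tomm6 rose by log2 1.22 in naive and 0.60 in TH1 cells, but 76% of its exon bases belong also to the read-through model Gm21981 on the same strand. Tomm7, which loosens the complex in yeast, averaged 43.4, 48.7, 65.3 and 65.4 CPM. It rose by log2 0.58 from naive to TH1 effector cells (adjusted p = 8.18e-08) and missed the threshold on both stimulations (log2 0.16, adjusted p = 0.0520, and log2 0.00, adjusted p = 0.970). In activated naive cells Tomm7 passed in a fit with the library number as block (adjusted p = 0.0398), in the first run alone (0.0384) and without number 4 (0.0493) or 5 (0.0328), and its adjusted p ranged from 0.0328 to 0.950 over 17 alternatives.

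Tomm34, a cytosolic co-chaperone that binds Hsp70 and Hsp90 together with precursors, was among the few members that fell. It lay at 100.6 to 109 CPM in naive (median 102), 99.8 to 120 in activated naive (median 108), 63.5 to 79.2 in TH1 effector (median 74.1) and 70.1 to 98.6 CPM in reactivated TH1 libraries (median 78.5). Both TH1 states lay below both naive states in every library. From naive to TH1 effector cells it fell by 0.50 on the log2 scale (SE 0.07, adjusted p = 2.48e-07). Its change in activated naive cells missed the threshold (log2 0.08, adjusted p = 0.274). On reactivation it was higher by log2 0.16 (adjusted p = 0.0414), a call that was lost in 13 of 17 alternatives, among them those without number 1, 3, 5 or 6 (highest adjusted p over the 17, 0.667). Tomm20l had 1 count in all, in TH1 effector number 4. Its absence from the 6 naive libraries allows up to 0.0205 CPM, the level of 3 counts over those libraries.

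Samm50, the barrel-inserting channel of the sorting and assembly machinery, averaged 84.8, 142, 91.9 and 153 CPM in the same order of states. Both stimulations raised it to a like extent, by log2 0.74 (SE 0.04) in naive and 0.74 (SE 0.04) in TH1 cells, and the difference between the responses was -0.01 (SE 0.05, adjusted p = 0.911). From naive to TH1 effector cells it was higher by log2 0.11 (adjusted p = 0.0204), with overlapping libraries. That call was lost without number 1, 2, 3 or 4, the adjusted p reaching 0.415 without number 4.

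The TIM23 channel genes rose on stimulation with 1 exception, Timm17b on reactivation. Timm23, the channel protein (chromosome 14, 32180162 to 32201898, minus strand), lay at 28.1 to 33.6 CPM in naive (median 31.3), 113 to 143 in activated naive (median 129), 64.8 to 73.3 in TH1 effector (median 68.1) and 131 to 160 CPM in reactivated TH1 libraries (median 149). It rose 4.19-fold on activation, 2.22-fold from naive to TH1 effector cells and 2.14-fold on reactivation (log2 2.07, 1.15 and 1.10, SE 0.05 each, highest adjusted p = 8.03e-16). It has 5 near copies in the annotation, 4 of them pseudogenes. Timm50, the receptor that holds the channel shut and hands over presequences, lay at 22.2 to 27.7, 84.5 to 110, 34.7 to 48.2 and 93.8 to 130 CPM in the same order (medians 24.1, 99.0, 41.7 and 113), a 4.05-fold rise in naive and a 2.69-fold rise in TH1 cells (adjusted p = 1.2e-20 and 3.05e-17). Resting and stimulated libraries of Timm23 and Timm50 did not overlap in either cell type.

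Mammals have 2 alternative partners of Timm23 in the channel, Timm17a and Timm17b, and these parted in reactivated TH1 cells. Timm17a (chromosome 1, 135295213 to 135313778, minus strand) lay at 22.3 to 25.4 CPM in naive (median 24.4), 54.3 to 87.4 in activated naive (median 71.5), 39.3 to 49.5 in TH1 effector (median 42.3) and 108 to 145 CPM in reactivated TH1 libraries (median 130). Timm17b (chromosome X, 7899357 to 7908351, plus strand) lay at 14.7 to 20.8 CPM (median 16.8), 37.6 to 56.2 (median 46.7), 30.5 to 36.4 (median 32.4) and 22.2 to 27.1 CPM (median 24.7). Both genes were thus higher in activated naive and in TH1 effector libraries than in any naive library, whereas in reactivated TH1 libraries Timm17a was at its highest and Timm17b lay below every TH1 effector library. In activated naive cells they rose 2.96-fold and 2.75-fold (log2 1.57 and 1.46, SE 0.07 each). On reactivation Timm17a rose 3.01-fold (log2 1.59, SE 0.07, adjusted p = 2.91e-16) and Timm17b fell by 0.42 on the log2 scale (SE 0.07, adjusted p = 1.8e-05), as the only member that fell there. Timm17b kept this call in the 17 alternatives other than the test against a minimum fold of 1.5, which it did not pass.

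The ratio of Timm17a to Timm17b counts within a library needs no scaling between libraries. It lay at 1.15 to 1.68 in naive, 1.44 to 1.62 in activated naive, 1.23 to 1.36 in TH1 effector and 4.88 to 5.66 in reactivated TH1 libraries. The reactivated libraries stood apart, while naive libraries overlapped both other states. Against TH1 effector libraries the ratio was 4.02-fold higher and against activated naive libraries 3.48-fold higher (exact two-sided permutation tests, p = 0.0021645 and adjusted p = 0.002886 each). It did not pass in activated naive against naive (1.07-fold, adjusted p = 0.375) or in TH1 effector against naive cells (0.923-fold, adjusted p = 0.282). The coding sequences of the 2 genes are 73.07% identical over 401 aligned bases. Each gene has 1 pseudogene at 90% identity or more (Gm7180 and Gm8387), and reads shared with these were not resolved here.

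**Figure D2:**
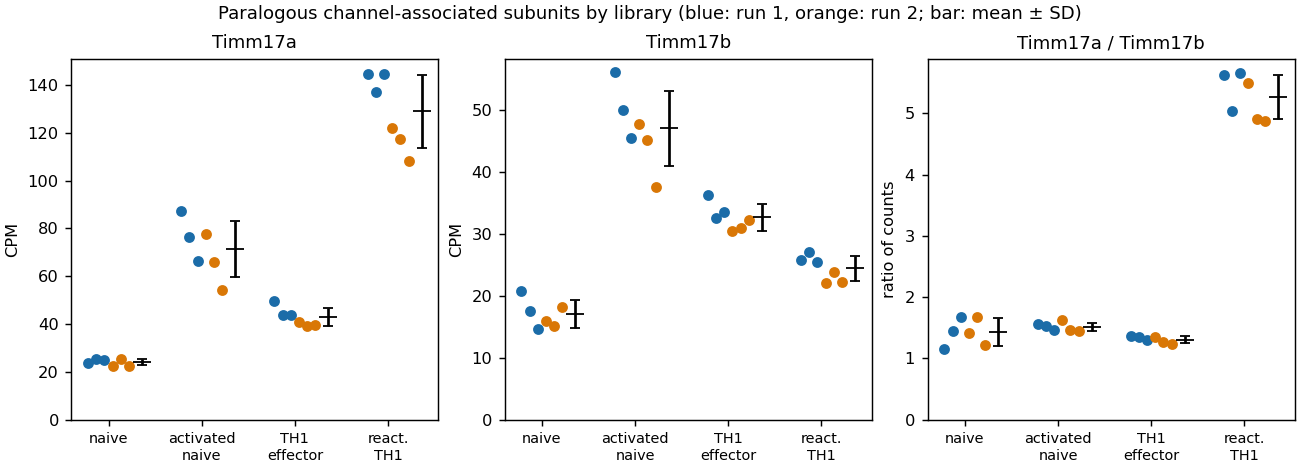
CPM of Timm17a and of Timm17b and the ratio of their counts in each library (points, coloured by sequencing run; black bars, mean and SD of 6 libraries). The ratio lies between 1.15 and 1.68 in the 3 other states and between 4.88 and 5.66 in reactivated TH1 libraries of both runs.

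Promoter sequence was looked at because most members moved together and because Timm17a and Timm17b did not. RefSeq windows of 250 bases before to 50 after the start were at hand for 30 of the 34 members. The letters CCGGAAG, read by ETS factors such as GABP, stood on either strand in the windows of 12 of these 30 members (40%), in 9.93% of all gene windows and in 20.4% of those of tested genes. CACGTG, the E-box of MYC and MAX, stood in 5 of 30 (16.7%, against 8.09% and 12.0%), GCGCATGC of NRF1 in 2 of 30 (6.67%, against 3.05% and 6.21%), AAGATGGC of YY1 in 1 of 30 (3.33%, against 3.19% and 5.38%) and TGATGCAA of ATF4 and CHOP in 0 of 30 (1.03% and 0.815%). No string contains another. Tomm20l, which was not tested, is among the 30 members and among the 5 with the E-box. The share of tested genes is therefore not that of a wholly like set. These letters, the background of tested genes and the windows printed were chosen after the values were seen, and a match is a description of sequence. The 120 bases before the RefSeq start are shown for the 2 Timm17 genes, which moved apart on reactivation, and for 3 members that rose on both stimulations and hold a match there. They are written 5′ to 3′ on the gene's strand in GRCm38.p6, with the matched letters of the ETS site (Timm10 and Timm23, on the reverse strand as CTTCCGG) and of the NRF1 site (Grpel1) in capitals.
Timm17a (chr1:135313738-135313857, minus strand): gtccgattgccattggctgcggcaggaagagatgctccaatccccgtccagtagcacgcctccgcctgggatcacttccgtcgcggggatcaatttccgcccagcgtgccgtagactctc
Timm17b (chrX:7899216-7899335, plus strand): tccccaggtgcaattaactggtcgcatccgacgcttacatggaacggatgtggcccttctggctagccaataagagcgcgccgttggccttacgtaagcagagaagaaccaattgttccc
Timm10 (chr2:84826901-84827020, plus strand): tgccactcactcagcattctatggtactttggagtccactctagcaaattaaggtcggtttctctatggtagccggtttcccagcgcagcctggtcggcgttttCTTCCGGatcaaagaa
Timm23 (chr14:32201892-32202011, minus strand): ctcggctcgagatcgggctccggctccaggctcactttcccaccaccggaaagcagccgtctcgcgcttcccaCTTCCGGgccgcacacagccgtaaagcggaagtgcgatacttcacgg
Grpel1 (chr5:36465065-36465184, plus strand): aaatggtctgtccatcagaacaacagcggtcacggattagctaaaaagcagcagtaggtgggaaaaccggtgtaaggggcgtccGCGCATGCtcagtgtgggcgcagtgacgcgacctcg
The 120 bases shown for Timm17a and Timm17b hold none of the 5 letter strings. Nor do those of Chchd4 and Tomm40, which rose on both stimulations and are not shown. The windows of Timm10b, Tomm34 and Timm8a2, which were not called higher in activated naive cells, all hold CCGGAAG. Tomm7, the other tested member not called higher there, had no window. Whether a match goes with a rise was not tested. RefSeq and GENCODE differ in some starts, so that part of a window can lie within the first exon of the other annotation.

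Timm21 rose least among the channel subunits, by log2 0.28 (SE 0.05, adjusted p = 7.7e-05) in naive and 0.44 (SE 0.05, adjusted p = 1.21e-07) in TH1 cells. Its rise in naive cells missed the threshold when libraries were scaled by their size alone (adjusted p = 0.0733, the highest of 17 alternatives, and the lowest 3.17e-06).

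All 5 members of the motor that pulls precursors into the matrix rose on both stimulations, by log2 0.55 to 0.97 in activated naive cells and by 0.23 to 1.18 on reactivation. From naive to TH1 effector cells 3 of them were higher and 2 lower. Timm44, the scaffold that holds the chaperone mtHsp70 (Hspa9) at the channel, averaged 57.0, 96.9, 64.8 and 89.8 CPM. The 2 nucleotide exchange factors of that chaperone differed most from each other in TH1 effector cells. Grpel1, the general factor, lay at 39.2 to 48.6 CPM in naive (median 44.9), 84.0 to 92.5 in activated naive (median 88.1), 54.8 to 67.3 in TH1 effector (median 58.6) and 86.4 to 90.7 CPM in reactivated TH1 libraries (median 88.2). Grpel2, its stress-related paralog, lay at 33.4 to 37.1 (median 34.5), 48.6 to 53.8 (median 51.3), 16.5 to 20.8 (median 17.4) and 38.1 to 42.7 CPM (median 40.6).

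From naive to TH1 effector cells Grpel1 rose by log2 0.42 (SE 0.05, adjusted p = 1.47e-07) while Grpel2 fell by 0.97 on the log2 scale (SE 0.04, adjusted p = 1.18e-14). Grpel2 was then 2.27-fold higher after reactivation (log2 1.18, adjusted p = 3.59e-16), the largest rise of a motor gene there. Counts of Grpel1 relative to Grpel2 were 1.06 to 1.43 in naive, 1.62 to 1.85 in activated naive, 2.74 to 3.81 in TH1 effector and 2.11 to 2.28 in reactivated TH1 libraries, with no overlap between states. The ratio was 2.62-fold higher in TH1 effector than in naive cells and fell by 0.62 on the log2 scale on reactivation (exact permutation tests, adjusted p = 0.002886 each).

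Pam16 and Dnajc19 (Pam18) encode the J-related pair that holds back and stimulates mtHsp70. Pam16 lay at 11.5 to 13.0 CPM in naive (median 12.0), 15.6 to 23.96 in activated naive (median 19.98), 19.2 to 26.6 in TH1 effector (median 23.2) and 23.04 to 29.7 CPM in reactivated TH1 libraries (median 27.8). Dnajc19 lay at 14.3 to 16.8 (median 14.8), 25.3 to 31.3 (median 28.6), 12.1 to 15.6 (median 13.6) and 20.4 to 26.0 CPM (median 23.6). Pam16 was thus above its naive level in TH1 effector libraries without overlap (log2 0.91, SE 0.09, adjusted p = 5.66e-10), where Dnajc19 was slightly lower with overlap (log2 -0.16, SE 0.06, adjusted p = 0.0351). This Dnajc19 call was lost in the fit with the library number as block (adjusted p = 0.0521) and without number 3, 4 or 5 (0.0896, 0.0536 and 0.178), and its adjusted p ranged from 0.0135 to 0.915 over 17 alternatives. The ratio of Pam16 to Dnajc19 counts was 0.718 to 0.898 in naive and 1.56 to 1.76 in TH1 effector libraries, a 2.10-fold difference (exact permutation test, adjusted p = 0.002886). The rise of Pam16 on reactivation (log2 0.23, adjusted p = 0.0162) was lost in 7 of 17 alternatives, among them that without number 4 (0.0620, the highest being 0.210). Exons of Pam16 share 18.7% of their bases with Glis2 on the other strand, which averaged 0.0986, 0.127, 7.41 and 2.53 CPM in the order of states.

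Among the chaperones of the intermembrane space, the Timm8a1 and Timm10 transcripts had the largest rises on stimulation, and Timm10b did not pass in activated naive cells. Timm10, which with Timm9 forms the main hexamer that shields membrane proteins, lay at 5.02 to 7.61 CPM in naive (median 6.26), 36.4 to 46.4 in activated naive (median 41.3), 8.19 to 9.62 in TH1 effector (median 8.69) and 31.5 to 39.7 CPM in reactivated TH1 libraries (median 34.4). It rose 6.54-fold in activated naive cells (log2 2.71, SE 0.08, adjusted p = 4.36e-20) and 4.01-fold on reactivation (adjusted p = 3.59e-17). Its partner Timm9 averaged 17.9, 56.4, 23.9 and 51.5 CPM, rising by log2 1.65 and 1.11. Timm10b, the form that sits at the TIM22 complex, lay at 22.1 to 29.1 CPM in naive (median 23.8), 23.4 to 32.4 in activated naive (median 27.0), 18.7 to 28.0 in TH1 effector (median 25.9) and 29.1 to 32.0 CPM in reactivated TH1 libraries (median 31.3). Its naive, activated naive and TH1 effector libraries overlapped. In activated naive cells Timm10b did not pass (log2 0.14, adjusted p = 0.145) except without number 6 (0.0374) and without numbers 5 and 6 (0.0427). The highest adjusted p of its 17 alternatives there was 0.773.

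Relative to Timm10b, counts of Timm10 were 0.216 to 0.281 in naive and 1.43 to 1.73 in activated naive libraries, a 5.95-fold difference and the largest of the 28 ratios tested (exact permutation test, adjusted p = 0.002886). On reactivation the ratio rose from 0.305 to 0.458 up to 1.07 to 1.31, a 3.21-fold difference (adjusted p = 0.002886, exact permutation test). Exons of Timm10b share 10.5% of their bases with the gene model Gm45799 on the same strand.

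Timm8a1 (chromosome X, 134537256 to 134541865, minus strand), whose human counterpart is mutated in a deafness and dystonia syndrome, lay at 2.65 to 3.42 CPM in naive (median 2.81), 17.9 to 19.98 in activated naive (median 19.1), 6.47 to 8.78 in TH1 effector (median 7.31) and 16.7 to 19.3 CPM in reactivated TH1 libraries (median 17.8). It rose 6.43-fold, 2.51-fold and 2.43-fold on activation, from naive to TH1 effector cells and on reactivation (log2 2.69, 1.33 and 1.28, SE 0.07 each). Timm8b, the other Tim8 form, lay at 11.7 to 14.05 (median 12.6), 16.4 to 27.9 (median 22.7), 24.1 to 29.6 (median 25.3) and 43.96 to 49.03 CPM (median 47.3). Timm8a1 thus overlapped between the 2 stimulated states, whereas Timm8b reached its highest level in reactivated TH1 libraries, above every library of the other states. Timm8b rose by log2 0.85 on each stimulation and the difference between its responses was -0.00 (SE 0.14, adjusted p = 1). The ratio of Timm8a1 to Timm8b rose 3.64-fold in activated naive cells (exact permutation test, adjusted p = 0.002886). In TH1 effector against naive cells it was 1.22-fold higher with overlap (exact permutation test, adjusted p = 0.0354), a call lost without number 3, 4 or 5 (adjusted p = 0.0648, 0.116 and 0.111) and with a pseudocount of 5 in place of 0.5 (0.0732). Timm8b exons share 15.6% of their bases with Nkapd1 on the other strand.

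Timm13, the partner of the Tim8 proteins, rose by log2 0.95 and 0.74 on the 2 stimulations. Timm22, the insertion channel itself, lay at 15.4 to 17.9 CPM in naive (median 17.0), 24.9 to 31.0 in activated naive (median 28.4), 18.9 to 22.8 in TH1 effector (median 19.8) and 35.0 to 44.6 CPM in reactivated TH1 libraries (median 39.4), with the 4 states apart. It rose 1.68-fold in naive and 1.97-fold in TH1 cells. Timm8a2 was at the limit of detection, with a mean of 0.764 CPM in naive libraries and at most 0.283 CPM in the other states. It was the only member lower in activated naive cells, by 1.42 on the log2 scale (SE 0.31, adjusted p = 0.000817), and its coding sequence is 81.12% identical to that of Timm8a1.

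The disulfide relay gene Chchd4 changed more than any other member on both stimulations. Chchd4 (chromosome 6, 91462172 to 91473546, minus strand) lay at 8.54 to 10.05 CPM in naive (median 8.91), 62.8 to 79.9 in activated naive (median 68.6), 14.55 to 20.7 in TH1 effector (median 17.2) and 86.4 to 100.3 CPM in reactivated TH1 libraries (median 92.7). All 4 states stood apart. It rose 7.81-fold in activated naive cells (log2 2.96, SE 0.08, adjusted p = 2.02e-21), 1.93-fold from naive to TH1 effector cells and 5.32-fold on reactivation (log2 2.41, SE 0.08, adjusted p = 2.65e-19). Gfer (Erv1), the oxidase that recharges it, averaged 16.4, 44.3, 23.5 and 32.7 CPM and rose by log2 1.43 (SE 0.08) and 0.48 (SE 0.08) on the 2 stimulations.

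The 2 subunits of the processing peptidase followed different courses. Pmpca, which holds the glycine-rich loop that binds presequences, lay at 69.7 to 78.1 CPM in naive (median 73.2), 144 to 166.4 in activated naive (median 154), 132 to 150 in TH1 effector (median 143) and 142 to 167.7 CPM in reactivated TH1 libraries (median 150). The catalytic subunit gene Pmpcb lay at 40.2 to 45.0 (median 42.1), 63.5 to 72.8 (median 66.9), 49.5 to 53.3 (median 51.0) and 59.4 to 69.0 CPM (median 67.5). Pmpca was thus already near its activated level in TH1 effector libraries, and its change on reactivation missed the threshold (log2 0.09, SE 0.04, adjusted p = 0.0783), whereas Pmpcb rose by log2 0.34 (SE 0.04, adjusted p = 3.7e-07). The ratio of Pmpca to Pmpcb rose from 1.58 to 1.83 in naive up to 2.48 to 2.93 in TH1 effector libraries, 1.60-fold (exact permutation test, adjusted p = 0.002886). On reactivation it was lower by 0.25 (log2 -0.25, exact permutation test, adjusted p = 0.0105). This fall was unequal between runs, log2 -0.42 in the first and -0.08 in the second. Exons of Pmpca share 20.4% of their bases with Inpp5e on the other strand, which averaged 59.5 CPM in naive and 26.7 to 32.9 CPM in the other states.

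**Figure D3:**
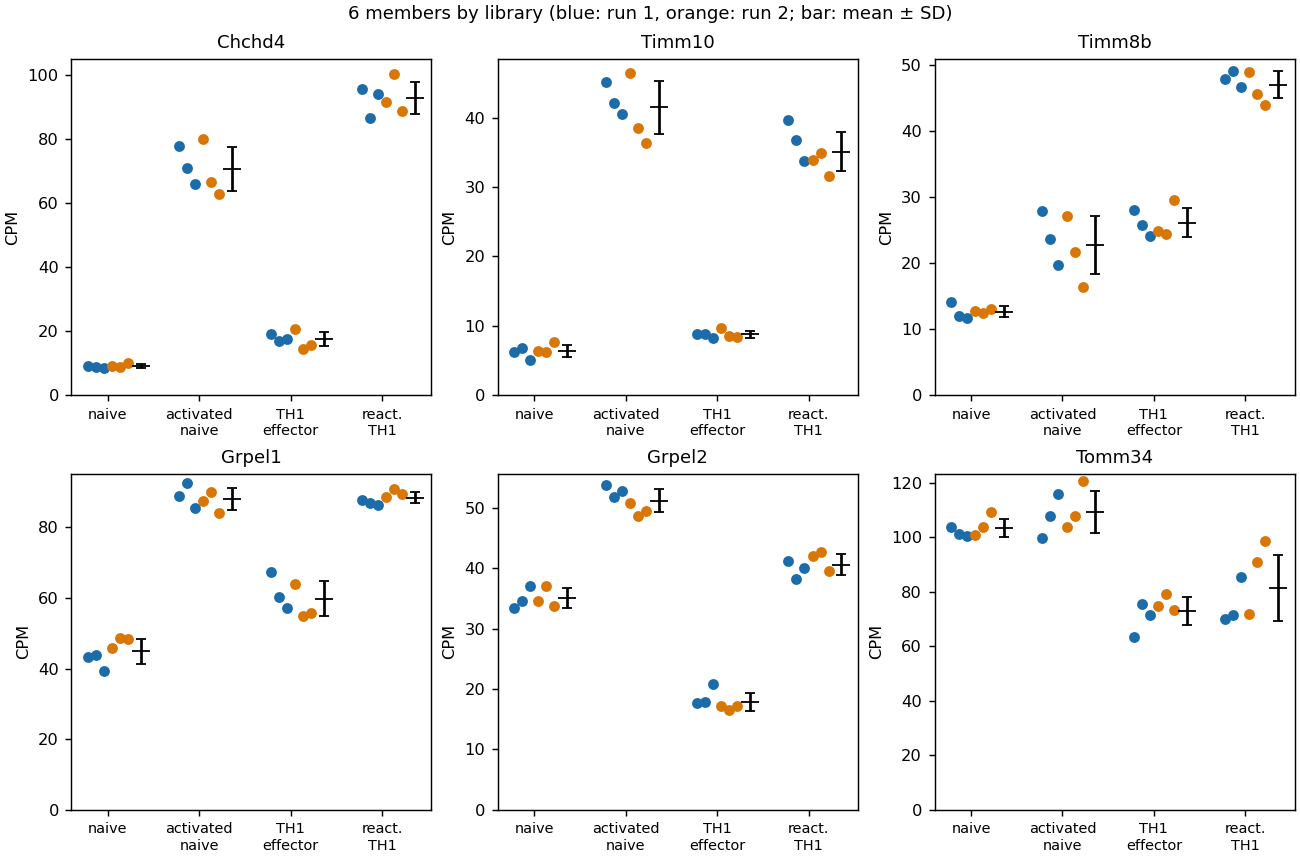
CPM of 6 members in each library (points, coloured by sequencing run; black bars, mean and SD of 6 libraries), each axis starting at 0. Chchd4 and Timm10 are high in both stimulated states, Timm8b is highest in reactivated TH1 libraries, Grpel2 is lowest in TH1 effector libraries while Grpel1 is not, and Tomm34 is lower in both TH1 states than in naive libraries.

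The response of TH1 cells to their stimulus was smaller than that of naive cells for most members, by the test of the difference itself. The interaction term (the log2 change on reactivation minus that on activation) was negative for 20 of 33 members and positive for 2 at an adjusted p under 0.05, when 33.7% of all genes were lower and 34.3% higher. Its median was -0.32 over the members and -0.004 over all genes. Timm17b had the largest difference (-1.88, SE 0.11, adjusted p = 6.61e-14), followed by Timm8a1 (-1.41, SE 0.09), Pmpca (-0.98, SE 0.06) and Timm23 (-0.97, SE 0.07). The starting levels differed: Timm8a1, Pmpca and Timm23 were already 2.51-fold, 1.93-fold and 2.22-fold above naive in the TH1 effectors.

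Grpel2 (0.64, SE 0.06, adjusted p = 6.42e-08) and Timm22 (0.23, SE 0.08, adjusted p = 0.0289) were the members with the larger response in TH1 cells. The Timm22 call was lost in 11 of 16 alternatives, among them those without number 1, 2, 3, 4 or 6, where the adjusted p ran up to 0.0734 (highest over the 16, 0.224). The Timm13 difference (-0.22, adjusted p = 0.0251) was lost without number 2, 3 or 4 (adjusted p up to 0.168). Timm21 passed without number 5 (0.21, adjusted p = 0.0466), without numbers 5 and 6 (0.0354) and with library size only (0.0310), and Timm8a2 without number 2 (2.12, adjusted p = 0.0206). The differences of Timm17a, Samm50, Timm8b, Tomm22, Tomm34 and Timmdc1 lay between -0.01 and 0.09 and did not pass. The runs alone gave 1 higher and 20 lower members in the first and 1 higher and 14 lower in the second, and leaving out numbers 5 and 6 gave 3 and 20. Shares of all genes in these smaller fits are not given here.

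**Figure D4:**
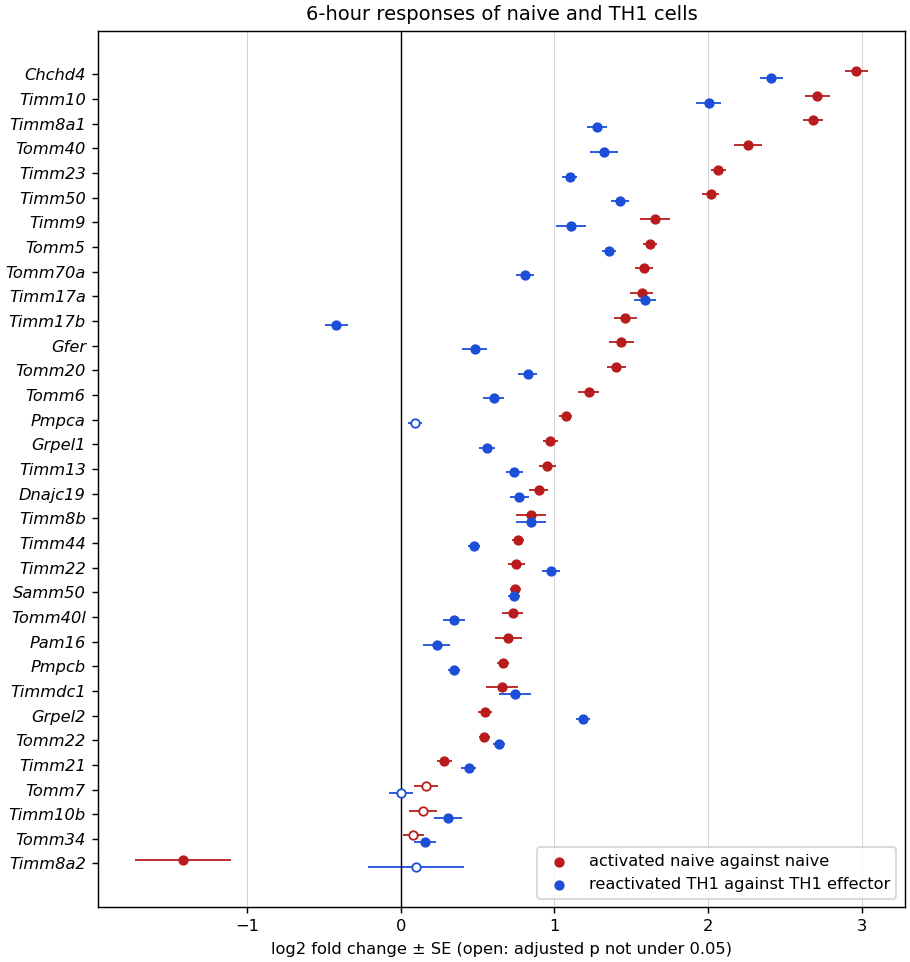
Log2 fold change with SE of each tested member in activated naive against naive cells (red) and reactivated TH1 against TH1 effector cells (blue), open where the adjusted p was not under 0.05. Blue points lie left of the red ones for most members, farthest for Timm17b at -0.42 against 1.46, and to the right for Grpel2 at 1.18 against 0.55.

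Between the 2 stimulated states members were called in both directions, in shares (42.4% higher, 30.3% lower) not above those of all genes. In reactivated TH1 against activated naive cells 14 members were higher and 10 lower, against 43.4% and 36.4% of all genes, with medians of 0.10 and 0.08, and 9 did not pass. The groups did not overlap for 9 of the higher and 4 of the lower ones, and the share of all genes without overlap was not counted. Timm8b (log2 1.04, SE 0.10), Timm17a (0.85, SE 0.07) and Tomm5 (0.74, SE 0.05) led the higher members. Timm17b (-0.94, SE 0.07), Gfer (-0.43, SE 0.08) and Tomm34 (-0.43, SE 0.07) were the lowest after Timm8a2. In each run alone the counts were 13 and 8, then 11 and 8, and 11 and 11 without numbers 5 and 6, with no shares of all genes in these fits given here.

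Some calls of small size in this comparison changed when 1 number, which is 1 library of each state, was left out. Samm50 (log2 0.10, adjusted p = 0.0328) was lost without number 1, 2, 3, 4 or 5, with adjusted p up to 0.265. Timm44 (-0.11, adjusted p = 0.0299) was lost without number 2, 3 or 6, with adjusted p up to 0.118. Timmdc1, a factor of complex I assembly that shares the Tim17 fold, missed the threshold (log2 0.21, adjusted p = 0.0560) and passed without number 1 (0.0494) or 4 (0.0439) with library size only (0.0309) and with the library number as block (0.0415). Timm10b (log2 0.18, adjusted p = 0.0666) likewise passed with that block (0.0431) and with library size only (0.0399). Timm23 and Timm50, both higher by log2 0.18, missed the threshold without numbers 5 and 6 (adjusted p = 0.103 and 0.0846). Timm50 missed it also in the second run alone (0.275) and with no run term (0.0729).

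Levels of different genes are compared here only per length, as CPM per kilobase of the union of exons in GENCODE M21. In naive libraries Tomm22 (47.9 ± 1.65), Tomm6 (42.1 ± 3.68) and Tomm7 (38.6 ± 4.99) stood highest among the members, and apart from Timm8a2 and Tomm20l the lowest were Chchd4 (1.74 ± 0.10), Timm8a1 (2.06 ± 0.21) and Timm17a (3.05 ± 0.17; mean ± SD, n = 6). Tomm6 and Tomm7 lay within 1 SD of each other. In reactivated TH1 libraries Tomm5 led at 126 ± 3.68, followed by Timm8b, Tomm22, Tomm6 and Timm23 at 82.3 to 90.8. Chchd4 reached 17.9 ± 0.965 there. On this scale Timm17b stood above Timm17a in naive libraries (6.68 and 3.05) and below it in reactivated TH1 libraries (9.57 and 16.3). The isoforms made by the cells were not resolved, so the lengths are those of the annotation.

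Genes that work beside the translocases are given here by counts, beside the shares of all genes tested. They were taken from 7 lists written from textbook knowledge, 71 genes of which 70 were tested (3 further symbols were not analysed here). In activated naive cells 50 were higher and 17 lower (71.4% and 24.3%, against 41.3% and 40.5% of all genes). In TH1 effector cells 43 and 17 were (61.4% and 24.3%, against 44.6% and 40.3%), and on reactivation 44 and 13 (62.9% and 18.6%, against 39.9% and 39.8%), with median log2 fold changes of 0.89, 0.45 and 0.37. Against activated naive cells 26 were higher and 23 lower in reactivated TH1 cells (37.1% and 32.9%), both shares below the 43.4% and 36.4% of all genes. The interaction term was positive for 14 and negative for 39 (20% and 55.7%, against 34.3% and 33.7%). Some of these genes, Hscb and Vdac1 among them, fell on both stimulations, so its sign does not give the size of a response.

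Among partner genes with a mean of at least 1 CPM in the higher group, the largest changes in activated naive cells were those of Myc, a growth-promoting transcription factor (65.5 to 1033 CPM, log2 3.98), Chchd10, a small relay substrate (4.78 to 32.4 CPM, log2 2.76), and Hspa9, the motor's chaperone (200 to 1169 CPM, log2 2.55). In TH1 effector against naive cells they were Chchd10 (3.24), Myc (2.83) and the stress factor gene Atf5 (2.69). On reactivation they were Hspd1, the matrix chaperonin (388 to 1511 CPM, log2 1.96), the presequence-degrading protease gene Pitrm1 (1.61) and Dnajc11 (1.47), a partner of Samm50. Ddit3 (-2.29), the outer membrane channel gene Vdac1 (1.43) and the copper chaperone gene Cox17 (1.29) led the comparison of the stimulated states under the same minimum, and Myc (-3.61), Ddit3 (-3.28) and Immp2l (3.07) that of the responses. Immp2l met that minimum only in TH1 effector libraries (1.24 CPM). Its larger changes in activated naive against naive cells (log2 -3.87) and between the stimulated states (log2 4.05) fell under it. These changes and the difference of responses of 3.07 all rest on 6 counts in all activated naive libraries together.

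The lists are small, and their counts are a description beside the all-gene shares above: in TH1 effector cells the proteases (43.8% higher), the regulators (41.7%) and the insertion factors (20%) lay at or below the 44.6% of all genes. Matrix chaperones had 7 of 8 higher and Hscb lower in activated naive cells and 6 of 8 higher with Hscb lower on reactivation. Of the relay partner and substrates, 6 of 7 were higher in activated naive cells, all 7 in TH1 effectors, and 3 on reactivation, where Chchd10 and Cmc1 were lower. Cytosolic chaperones of precursors were higher for 4 of 6, 4 of 6 and 5 of 6 in these comparisons. Outer membrane and cristae partners were higher for 12, 13 and 9 of 16 and lower for 4, 2 and 3, Vdac1 being lower on both stimulations. Proteases of the matrix and inner membrane split, with 9, 7 and 9 of 16 higher and 5 lower each time, the stress protease gene Oma1 lower in all 3. The list of insertion factors and the TIM22 lipid kinase had 3, 1 and 3 of 5 higher and 2, 2 and 1 lower. Among 12 tested regulators of mitochondrial gene expression 9, 5 and 9 were higher and 3, 6 and 1 lower.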

How the data were processed

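Bulk RNA-seq of mouse CD4 T cells was analysed from whole-number read counts per gene symbol, which the authors deposited unnormalised, 1 table per library. The submitters' processing notes name STAR, HTSeq, DESeq2 and mm10. The sources used here do not give versions, annotation or the strand setting of counting, and overlapping genes may have been counted together. Reads in no feature (13.2% to 24.5%) or in several (0.706% to 1.25%) and the other lines that name no gene stayed out.

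Counts were tested with edgeR 4.0.16 in R 4.3.3: filterByExpr, TMM scaling, a robust quasi-likelihood fit on group and sequencing run over all 24 libraries, and Benjamini-Hochberg adjustment over 12584 genes (threshold 0.05). The run was read from the deposited file names. CPM use TMM-scaled totals, and the SE is that of the difference of group means of log2 CPM (prior count 2, limma 3.58.1). For 7 pairs of related members log2 ratios of counts (pseudocount 0.5) were compared with exact two-sided permutation tests, adjusted over 28 tests. Tests were checked on simulated data. Near copies were searched with BLAST+ 2.17.0.

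Same-numbered libraries deviated together from their group means: Pearson r across genes was 0.106 to 0.430 in 36 pairs (median 0.265), and over 0.1 in all 36. Of 72 pairs with different numbers in the same run, 22 were over 0.1 (highest 0.307). With run means also removed, these counts were 35 of 36 and 1 of 72. The numbers therefore pair the samples, and a fit with the number as a block was an alternative. The main fit and the ratio tests did not use this pairing. No libraries of a state agreed within sampling noise (lowest chi-square per degree of freedom 9.21). Members and lists were chosen with earlier results of these data known. Per-library ranges are given for the members with the 4 largest changes each way past the threshold in a main comparison (at least 1 CPM), the ratio pairs, and the 3 largest differences of response each way. Other settings tried were RLE size factors, library size only, DESeq2 1.42.0, other filters, no run term, each run alone, 2 groups at a time, a minimum fold of 1.5 and leaving out each number. Leaving out numbers 5 and 6, the grouping by role and the motifs were chosen after seeing the data.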

Additional observations from a re-analysis of the deposited data

Results flagged for a closer look

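In 5 of 133 groups of 6 libraries a single library stood far from the other 5 by Dixon's criterion, which chance alone meets in about 1 group in 20. Gfer was at 37.9 CPM in activated naive number 6. Grpel2 was at 20.8 CPM in TH1 effector number 3, still below every naive library. Timm10b was at 18.7 CPM in TH1 effector number 5, Tomm7 at 32.6 CPM in naive number 3, and Tomm20l at 0.0443 CPM, a single count, in TH1 effector number 4.

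The responses of TH1 and naive cells differed by the interaction test of edgeR for 22 members. The interaction term (log2, reactivation minus activation) was -1.88 for Timm17b, -1.41 for Timm8a1, -0.98 for Pmpca, -0.97 for Timm23, -0.95 for Gfer, -0.93 for Tomm40, -0.78 for Tomm70a and -0.71 for Timm10. It was -0.62 for Tomm6, -0.59 for Timm50, -0.58 for Tomm20, -0.55 for Chchd4, -0.55 for Timm9, -0.47 for Pam16, -0.41 for Grpel1 and -0.38 for Tomm40l. The smallest differences were -0.32 for Pmpcb, -0.29 for Timm44, -0.27 for Tomm5 and -0.22 for Timm13. Grpel2 at 0.64 and Timm22 at 0.23 had the larger response in TH1 cells.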

How the results depend on the processing

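The number of members called lower was 0 in activated naive cells and 2 in TH1 effector cells when at least 10 CPM in a group was required. Against a minimum fold of 1.5, 13 members were higher and 2 lower in TH1 effector cells, 18 and 0 on reactivation, 3 and 2 between the stimulated states, and 0 and 7 in the difference of responses. A positive interaction term was called for 1 member with RLE size factors, DESeq2, the 10 CPM filter, no run term and either run alone. It was called for 4 members with library size only, and for 1 to 3 leaving out each number. With the library number as a replicate block, the counts higher and lower were 30 and 1, 25 and 3, 29 and 1, 16 and 10, and 2 and 20 in the order of the report. Leaving out each number kept 30 of 30, 27 of 29, 28 of 30, 22 of 24 and 20 of 22 calls. Shares of all genes under these settings are not given here.

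The log2 ratio of Timm8a1 to Timm8b in TH1 effector against naive cells was 0.238 with a pseudocount of 5 and 0.191 to 0.336 leaving out each number. On reactivation the log2 ratio of Timm10 to Timm10b was 1.87 in run 1 and 1.49 in run 2, and that of Pmpca to Pmpcb -0.416 and -0.0831. The cause of these shifts was not tested. No called member changed sign, and 68 signs differed where neither value was past the threshold. Scaling by library size alone moved the median of all genes to -0.137 in activated naive cells and -0.124 on reactivation, and changes under it are relative to that shift. Depth limits Timm8a2 and Tomm20l.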
